A study of Morone chrysops x Morone saxatilis with 6 samples.

Results

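The 16 coding sequences described here were abundant in 1 pooled liver library of hybrid striped bass and far lower in the other 5. They were picked from the 38047 rows of the deposited table by their values in all 6 libraries. The 100 rows of highest mean level were left out, and a row was kept when its highest level was at least 10 CPM (the count divided by the total of its library, times 1000000) and at least 8 times the second highest. No limit on the number of rows came into play, since 16 is below the cap of 300. These values chose the members, so their height in 1 library is a description and was not tested.

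The fish were hybrids of domesticated white bass (generation F8) and striped bass (generation F4), bred as 44 half-sib families. They grew together in 4 communal ponds for 115 days, and the group called large held the largest and the group called small the smallest fish at harvest. Each group has 3 libraries, made from liver RNA pooled in equal amounts from several fish, so a library stands for a pool and not for an animal. Strain and time are common to both groups. No source used here gives the number of fish in a pool or how the pools were drawn. Whether the ponds and families were alike between the groups is therefore not known.

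The liver of a bony fish makes most of the proteins of the blood plasma, stores and releases lipid and glycogen, and in maturing females makes the yolk precursors carried to the eggs. Pooling RNA from several animals averages their transcript levels. A level in a pool therefore does not tell a moderate level in many fish from a high level in a few, and a change in the number of cells of a type cannot be told apart from a change in RNA per cell. The table names its rows only by a running number and pairs none of them with a gene. No gene function is given for any member for that reason, and the labelled tissue could not be checked against its marker genes.

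The libraries held 5327580, 4783800 and 19625891 counts in large libraries 1, 2 and 3, and 8892682, 2434421 and 3491954 counts in small libraries 1, 2 and 3. A level of 10 CPM thus rests on 196 counts in large library 3 and on 24.3 counts in small library 2. Where no read was counted, up to 3 could have been missed, a limit of 0.153 CPM in large library 3 and of 1.23 CPM in small library 2. Outside the 100 most abundant rows, 11703 coding sequences reached 10 CPM in at least 1 library, and the median ratio of their highest to their second highest library was 1.18. A ratio of 2 or more was found in 6.29% of them, a ratio of 4 or more in 0.889% and a ratio of 8 or more in 0.137%, which are the 16 members.

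By library, 6 members were highest in small library 1, 5 in large library 2, 4 in large library 1 and 1 in small library 2. None was highest in large library 3 or in small library 3. By growth group, 9 were highest in a large and 7 in a small library. These counts followed only in part how often a library was the highest of the 6 among the 11703 coding sequences. Large library 1 was highest for 26.2% of those and small library 1 for 23.7%, and both held members. Small library 3, with no member, was highest for 19.9%, and small library 2, with 1, for 14.0%. Large library 3, with no member, was highest for 8.47%, and large library 2, with 5, for 7.75%. Of the coding sequences highest in a library, members made up 0.551% in large library 2, 0.216% in small library 1, 0.131% in large library 1 and 0.0611% in small library 2.

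**Figure D1:**
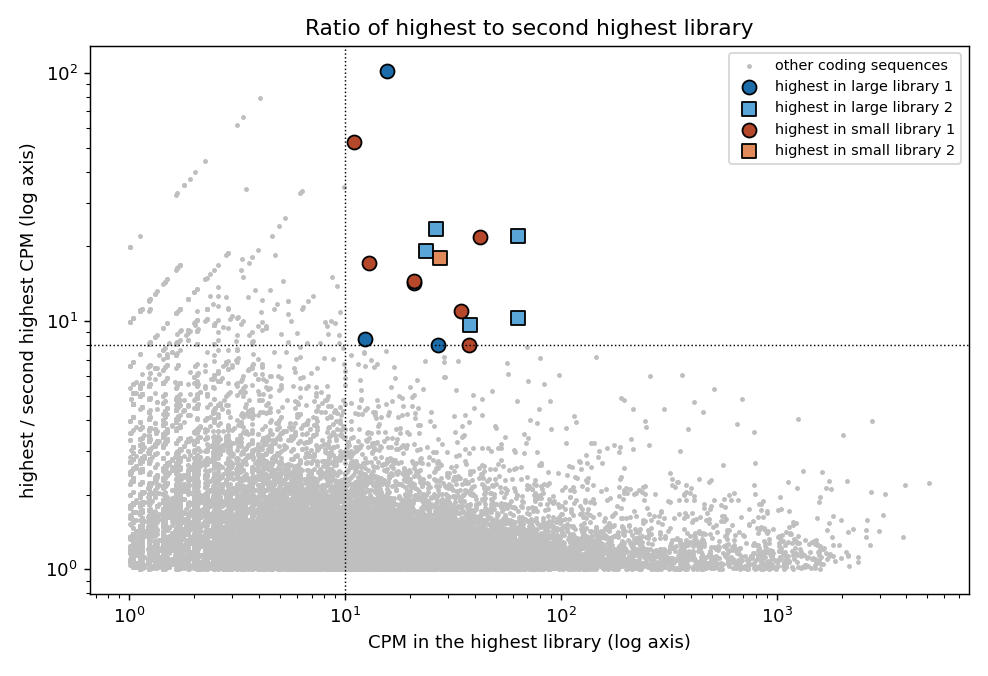
Highest CPM of each coding sequence (horizontal, log axis) against the ratio of its highest to its second highest library (vertical, log axis), for rows of at least 1 CPM with a count in the second library, without the 100 most abundant. Dotted lines mark 10 CPM and a ratio of 8, and the 16 members in colour lie at ratios of 8.03 to 102.

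Across the 16 members the highest level ran from 11.0 to 63.3 CPM, with a median of 26.6 CPM, and was carried by 66 to 376 counts. The second highest level ran from 0.153 to 6.16 CPM, with a median of 1.496 CPM. The ratio between them had a median of 15.9 and ran from 8.03 to 102. The highest library held 72.1% to 99.0% of the CPM summed over the 6 libraries. The exact 95% counting interval of the ratio lay wholly above 8 for 7 members and reached below 8 for the other 9. The same counts chose the members by this ratio, so the intervals are a description and do not test the limit of 8. Only counting error enters these intervals, and PCR copies of a molecule are counted as if independent. Estimated counts are also taken as if each were an observed read. Of the 80 values in the 5 lower libraries, 23 were counts of 0, and 5 members had a count in all 6 libraries.

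**Figure D2:**
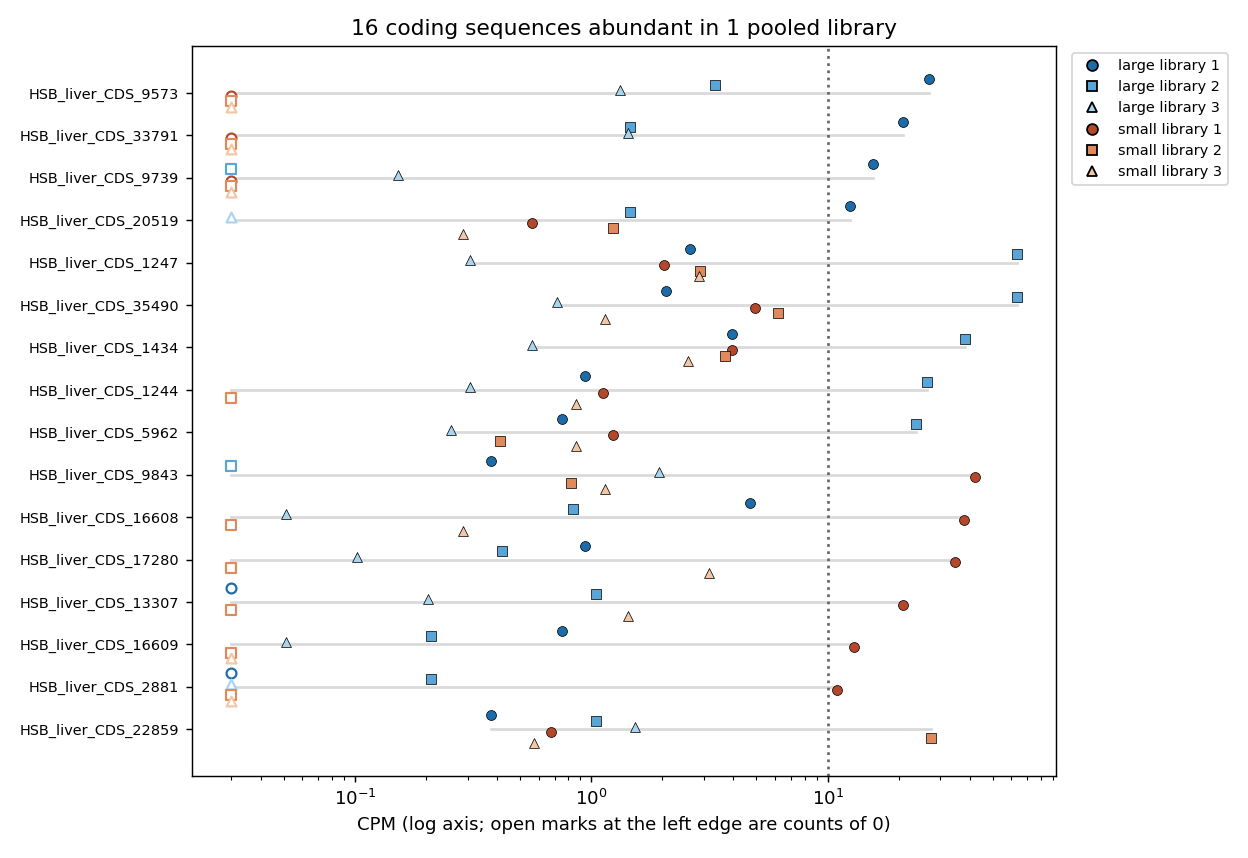
Level of each of the 16 members in the 6 libraries in CPM (log axis), blue for large and red or orange for small fish, with counts of 0 as open marks at the left edge and 10 CPM as a dotted line. In every row 1 library lies right of the dotted line, and the 5 others lie at 6.16 CPM or less.

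Of the 5 members highest in large library 2, 4 had a count in all 6 libraries. HSB_liver_CDS_1247 stood at 63.3 CPM (303 counts) in large library 2, at 2.63 and 0.306 CPM in large libraries 1 and 3, and at 2.02, 2.88 and 2.86 CPM in small libraries 1, 2 and 3. HSB_liver_CDS_35490 had the same 303 counts in large library 2, with 2.06 and 0.713 CPM in large libraries 1 and 3 and 4.95, 6.16 and 1.15 CPM in the small libraries. HSB_liver_CDS_1434 was at 38.0 CPM (182 counts) there, at 3.94 and 0.560 CPM in large libraries 1 and 3 and at 3.94, 3.70 and 2.58 CPM in the small ones. In these 3 the libraries other than large library 2 overlapped between the growth groups, and large library 3 was the lowest of all.

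The remaining 2 of this set were lower in large library 2. HSB_liver_CDS_1244 was at 26.3 CPM (126 counts) in large library 2, at 0.939 and 0.306 CPM in large libraries 1 and 3, and at 1.12, 0 and 0.859 CPM in the small libraries. HSB_liver_CDS_5962 was at 23.6 CPM (113 counts), with 0.751 and 0.255 CPM in large libraries 1 and 3 and 1.24, 0.411 and 0.859 CPM in the small libraries. Large library 3, the deepest of the 6, was thus the lowest for 4 of the 5 members, and small library 2 for HSB_liver_CDS_1244. The ratios of highest to second highest CPM were 22.0 for HSB_liver_CDS_1247 (counting interval 10.6 to 55.3), 10.3 for HSB_liver_CDS_35490 (6.13 to 18.6) and 9.65 for HSB_liver_CDS_1434 (6.13 to 15.97). They were 23.4 for HSB_liver_CDS_1244 (12.3 to 50.0) and 19.1 for HSB_liver_CDS_5962 (10.3 to 39.3).

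The 6 members highest in small library 1 were at 0.822 CPM or less in small library 2. That library, the shallowest, had no count for 9 of all 16 members. HSB_liver_CDS_9843 stood at 42.3 CPM (376 counts) in small library 1, at 0.822 and 1.15 CPM in small libraries 2 and 3, and at 0.375, 0 and 1.94 CPM in large libraries 1, 2 and 3. HSB_liver_CDS_16608 was at 37.7 CPM (335 counts), with 0 and 0.286 CPM in small libraries 2 and 3 and 4.69, 0.836 and 0.0510 CPM in the large libraries. HSB_liver_CDS_17280 was at 34.6 CPM (308 counts), with 0 and 3.15 CPM in small libraries 2 and 3 and 0.939, 0.418 and 0.102 CPM in the large libraries. The library that came second differed in each of these 3, being large library 3, large library 1 and small library 3 in turn.

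The other 3 members of small library 1 were lower. HSB_liver_CDS_13307 was at 20.8 CPM (185 counts), with 0 and 1.43 CPM in small libraries 2 and 3 and 0, 1.05 and 0.204 CPM in the large libraries. HSB_liver_CDS_16609 was at 12.9 CPM (115 counts), with no count in small libraries 2 and 3 and 0.751, 0.209 and 0.0510 CPM in the large libraries. HSB_liver_CDS_2881 had 98 counts in small library 1 (11.0 CPM), 1 count in large library 2 and none elsewhere. Small library 2 had no count for 5 of the 6 members, at a depth where 0 allows 1.23 CPM. HSB_liver_CDS_9843 had the highest count of all 16 members, and its ratio of 21.8 had a counting interval of 15.6 to 31.3. In 1 random draw that thinned all libraries to equal totals its ratio was 12.6. HSB_liver_CDS_2881 had a ratio of 52.7 with an interval of 9.24 to 2103, since its second value is 1 count.

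Ratios for the remaining members of small library 1 were 8.03 for HSB_liver_CDS_16608 (5.34 to 12.6), 11.0 for HSB_liver_CDS_17280 (6.06 to 22.3), 14.5 for HSB_liver_CDS_13307 (6.11 to 45.3) and 17.2 for HSB_liver_CDS_16609 (6.55 to 64.3). HSB_liver_CDS_16608 and HSB_liver_CDS_16609 were the only members with consecutive running numbers. Both came second in large library 1, the library of the same number in the other growth group. Their counts in small library 1, 335 and 115, were set against 25 and 4 in large library 1 and no more than 4 in any other library.

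Of the 4 members highest in large library 1, 3 had no count in any small library. HSB_liver_CDS_9573 stood at 26.8 CPM in large library 1 and at 3.34 and 1.32 CPM in large libraries 2 and 3 (143, 16 and 26 counts). HSB_liver_CDS_33791 was at 20.8, 1.46 and 1.43 CPM in large libraries 1, 2 and 3 (111, 7 and 28 counts). HSB_liver_CDS_9739 was at 15.6, 0 and 0.153 CPM (83, 0 and 3 counts). For the former pair every large library was above every small one, while HSB_liver_CDS_9739 shared a count of 0 between large library 2 and the small libraries. The counts and the totals were also summed over the 3 libraries of each group, with 3 counts allowed in the small group. On these sums the observed large level was 30.7-fold higher for HSB_liver_CDS_9573, 24.3-fold higher for HSB_liver_CDS_33791 and 14.3-fold higher for HSB_liver_CDS_9739. Counting error enters these values only through the 3 counts allowed in the small group, and the large counts are taken as exact. They are thus not lower bounds, and they say nothing of the spread between pools or of large fish as a group. The rule used all 6 libraries, so the values are a description. They rest on large library 1, the library in which the 3 were highest. Without it they were 8.50-fold for HSB_liver_CDS_9573 (42 counts) and 7.08-fold for HSB_liver_CDS_33791 (35 counts). For HSB_liver_CDS_9739, left with 3 counts, the value was 0.607-fold. The 3 counts allowed in the small group, where none was counted, are a limit and not a level. An excess of HSB_liver_CDS_9739 without large library 1 was therefore neither shown nor excluded.

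HSB_liver_CDS_20519, the other member highest in large library 1, was at 12.4, 1.46 and 0 CPM in the large libraries (66, 7 and 0 counts) and at 0.562, 1.23 and 0.286 CPM in the small libraries (5, 3 and 1 counts). Its lower libraries overlapped between the groups. HSB_liver_CDS_9739 had the highest ratio of all 16 members, 102, with a counting interval of 33.7 to 504. The ratios were 14.2 for HSB_liver_CDS_33791 (6.69 to 36.2), 8.47 for HSB_liver_CDS_20519 (3.89 to 21.9) and 8.03 for HSB_liver_CDS_9573 (4.78 to 14.4).

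HSB_liver_CDS_22859 was the 1 member highest in small library 2. It stood at 27.5 CPM there (67 counts), at 0.675 and 0.573 CPM in small libraries 1 and 3, and at 0.375, 1.05 and 1.53 CPM in large libraries 1, 2 and 3. It was counted in all 6 libraries, its 5 lower libraries overlapped between the groups, and its ratio of 18.0 had a counting interval of 11.5 to 28.7. In 1 random draw that thinned all libraries to the total of small library 2 the ratio was 8.38.

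Near the limits of the choice, HSB_liver_CDS_9573 and HSB_liver_CDS_16608 lay just inside the ratio of 8, both at 8.03. Just outside it were HSB_liver_CDS_26175 at 7.89, with 70.0 CPM in large library 2, and HSB_liver_CDS_19753 at 7.56, with 15.5 CPM in small library 1. On the level of 10 CPM, HSB_liver_CDS_2881 was just inside at 11.0 CPM, and HSB_liver_CDS_1133 just outside at 9.90 CPM in small library 1, with 88 counts there, 1 in small library 3 and none elsewhere. All members lay far from the limit on mean level, with ranks from 6925 to 18441 by mean CPM.

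Summed over all 16 members, the level was 225 CPM in large library 2 and 174 CPM in small library 1, and 93.1 CPM in large library 1. The sums were 42.7 and 15.2 CPM in small libraries 2 and 3, and 8.92 CPM in large library 3. When the members highest in a library were left out of its sum, the 6 libraries lay between 8.92 and 17.5 CPM. These sums cover different members in each library. By the choice, every value left in is at least 8-fold below the highest of its row, which holds the sums low. The library that came second was the 1 of the same number in the other growth group for 4 members, and a library of the same growth group for 7. Both groups carry the numbers 1 to 3, and what a number stands for is left unsaid by the labels.

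At a ratio of 4 or more, 104 coding sequences were found, of which the 16 are a part. They were highest in small library 1 for 41, in large library 1 for 24, in large library 2 for 20, in small library 2 for 11, in small library 3 for 7 and in large library 3 for 1. For the 41 of small library 1, large library 1 came second in 17 and large library 2 in 11. Both number 3 libraries, which held no member, thus gave 8 of the 104 together.

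Coding sequences that set the number 3 libraries apart from the other 4 were abundant in both libraries at once. When small library 3 was left out, 75 coding sequences met the limits in large library 3, and when large library 3 was left out, 76 did so in small library 3. Leaving out small library 1 raised the number in large library 1 from 4 to 48, and leaving out large library 1 raised that in small library 1 from 6 to 71. The same step for number 2 gave 8 in large library 2 and 3 in small library 2, against 5 and 1. The choice of 1 pool only therefore leaves out what the pools numbered 1 or 3 share between large and small fish.

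**Figure D3:**
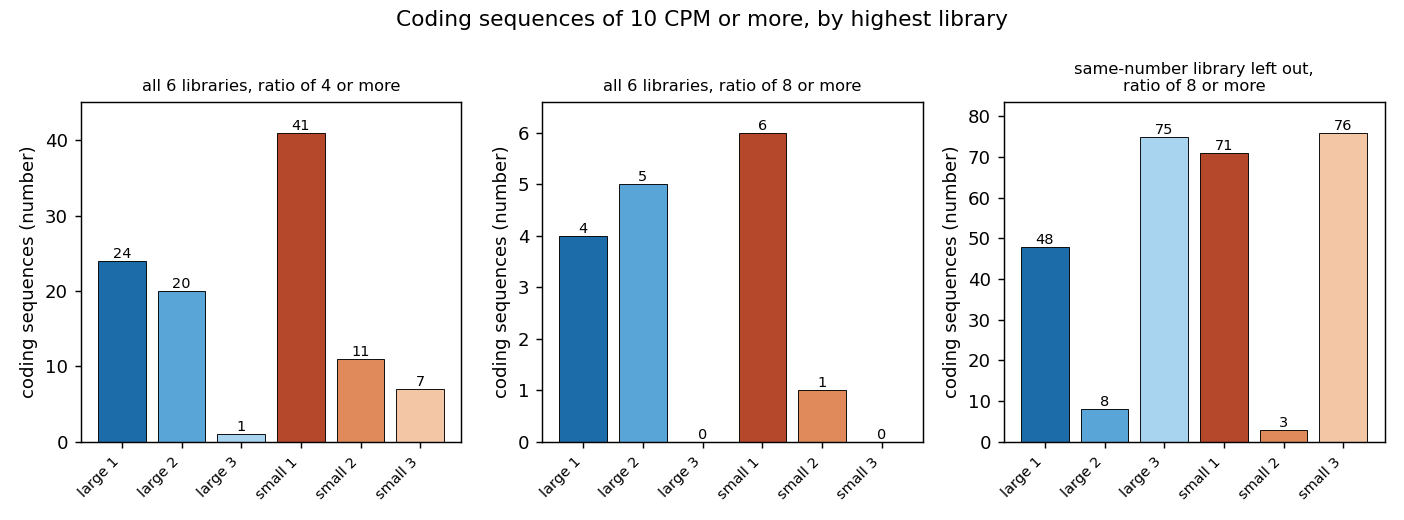
Number of coding sequences of 10 CPM or more by the library in which they were highest, at a ratio of 4 (left) and 8 (middle) over the second highest of all 6 libraries, and at a ratio of 8 with the library of the same number left out (right). The vertical axes differ in scale, and both number 3 libraries go from 0 in the middle to 75 and 76 on the right.

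Counted directly, 97 coding sequences had their second highest library at 10 CPM or more and at least 8 times the third highest, a count added after the numbers above had been seen. Of the 15 pairs of libraries, large and small library 3 shared 70 of them, large and small library 1 shared 26, and small libraries 2 and 3 shared 1. No other pair shared any, large and small library 2 included. No member could be among the 97, since the members had at most 6.16 CPM in their second highest library. The most abundant of the 70, HSB_liver_CDS_33322, stood at 5064 and 2271 CPM in large and small library 3 and at 27.5 to 76.8 CPM in the other 4. The most abundant of the 26, HSB_liver_CDS_32493, stood at 157 and 183 CPM in large and small library 1 and at 0.286 to 9.86 CPM in the other 4.

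The running number of a coding sequence had no part in the choice of members. HSB_liver_CDS_1244 and HSB_liver_CDS_1247, both highest in large library 2, lay 3 numbers apart. Among the coding sequences within 5 numbers of the 5 members of large library 2, members left out, 30 reached 1 CPM in some library, and 19 of these (63.3%) were highest in large library 2 as well. Over all 28389 coding sequences of at least 1 CPM this share was 10.2%. It was 6 of 32 (18.8%) for large library 1, where all coding sequences gave 21.9%, 9 of 38 (23.7%) against 20.6% for small library 1, and 2 of 9 (22.2%) against 16.7% for small library 2. Coding sequences with close numbers may not be independent, and how the numbers were given is not stated in the sources used here, so nothing was tested here.

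**Figure D4:**
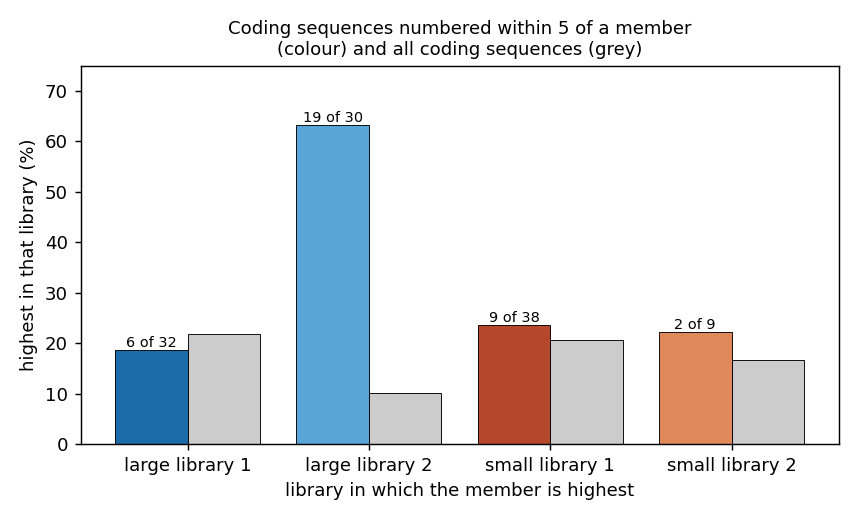
Share of coding sequences numbered within 5 of a member (members left out, at least 1 CPM) that were highest in the same library as the member, in percent, with the count above each coloured bar and the share over all coding sequences in grey. Large library 2 stands at 63.3% against 10.2%, and the 3 other libraries lie within 6 percentage points of their grey bars.

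Around large library 2 the neighbours were mostly of low level. The 19 had a median of 4.81 CPM in large library 2, 5 of them were at least 4 times a second library with a count, and 3 more, at 2.299 CPM or less, had no count in any other library and so no ratio. Near HSB_liver_CDS_1434, 6 of 7 neighbours were highest in large library 2, near HSB_liver_CDS_35490 5 of 7, near HSB_liver_CDS_1244 4 of 5, near HSB_liver_CDS_1247 3 of 5 and near HSB_liver_CDS_5962 4 of 10. HSB_liver_CDS_1244 and HSB_liver_CDS_1247 share neighbours, which are counted here under each of them. The most abundant was HSB_liver_CDS_35495, at 79.6 CPM (381 counts) in large library 2, with 18.1 CPM in small library 2 as its second highest. HSB_liver_CDS_1436 was at 5.44 CPM with a ratio of 12.1, and thus met the ratio but not the level asked of members. Of the neighbours not highest in large library 2, HSB_liver_CDS_1248, HSB_liver_CDS_1429, HSB_liver_CDS_5957, HSB_liver_CDS_5961, HSB_liver_CDS_5963, HSB_liver_CDS_5965 and HSB_liver_CDS_35486 were highest in small library 2. That library was highest for 16.7% of all coding sequences of at least 1 CPM. The base to set beside this share is all 30 neighbours of at least 1 CPM, those highest in large library 2 included. The difference was not tested. HSB_liver_CDS_1252, HSB_liver_CDS_5966, HSB_liver_CDS_5967 and HSB_liver_CDS_35485 were highest in libraries of number 1 or 3. Beside HSB_liver_CDS_9739, HSB_liver_CDS_9738 had 48 counts in large library 1, 18 in large library 3 and none elsewhere, the pattern of HSB_liver_CDS_9739 at a ratio of 9.82. Of the 104 coding sequences at a ratio of 4, those with another of the same library within 5 numbers were 11 of 20 for large library 2, 0 of 24 for large library 1, 4 of 41 for small library 1 and 4 of 11 for small library 2.

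Between large and small fish, 0 of 18135 coding sequences (0%), and so no member, passed an adjusted p of 0.05 in the quasi-likelihood test of edgeR. Only 3 members passed its filter on low counts, which asks for a minimum level in several libraries, and the other 13 were not tested in that fit. For HSB_liver_CDS_1247 the large libraries stood at 22.1 ± 35.7 CPM (SD, n = 3) and the small ones at 2.59 ± 0.488 CPM (SD, n = 3), which is 3.24 on the log2 fold scale with an SE of 1.71 (adjusted p = 1.0 in edgeR). A replicate block lowered the log2 fold change to 1.03 with an SE of 1.53 (adjusted p = 0.95 in edgeR). The other 2 tested members were HSB_liver_CDS_35490, at a log2 fold change of 2.57 (SE 1.64) without and 0.86 (SE 1.16) with the block, and HSB_liver_CDS_1434, at 2.16 (SE 1.36) and 0.62 (SE 1.13), with edgeR adjusted p-values of 0.95 to 1.0. In each of the 3 the spread within the large group came from large library 2. At an unadjusted p under 0.05 the fit without the block had 193 coding sequences (1.06%) and none of the 3. The members were chosen from the same libraries, so none of these values tests them afresh.

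DESeq2 called 1 coding sequence without the block (0.00268%), which was no member, and 51 with it (0.136%). Among the latter was HSB_liver_CDS_33791 (adjusted p = 0.0053 with the block and 0.14 without it), whose level was 7.91 ± 11.2 CPM (SD, n = 3) in large fish with no count in the small libraries. HSB_liver_CDS_9573, with the same order of libraries, had adjusted p-values of 0.056 without and 0.99 with the block in DESeq2. Without the block DESeq2 gave no p at all to 9 of the 16 members, as it does by default where a library weighs too heavily on a fit. Over all coding sequences with a count this happened to 171 of 37503. With the block it happened to 0 members and to 0 of the 37503. The 51 calls, HSB_liver_CDS_33791 among them, thus come from a fit that left no coding sequence out in this way. Groups that did not overlap, with large above small, were found for 2 of the 9 members highest in a large library, and for 3.18% of the 4962 coding sequences of at least 10 CPM that were highest in a large library. None of the 7 members highest in a small library had every small library above every large one, against 4.42% of the 6741 coding sequences highest in a small library. The choice of members used these same values, and nothing is read from either count.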

How the data were processed

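The authors deposited 1 table of estimated counts per coding sequence. Per the submitters' processing notes the tools were eXpress 1.5.1, Bowtie2 2.3.1, Trim Galore 0.4.3 and DESeq2, with no role or setting stated. All deposited values were whole numbers. Estimated counts can share reads between near-identical gene copies, so a level may belong to several copies, and whether the counting used strand is not stated. Columns were tied to libraries by the description label, and groups come from the growth label. The labels call the libraries biological replicates of pooled RNA, so p-values measure the spread between pools.

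Members were found from CPM relative to the library total. The members and the rules were chosen with earlier results of these data known. Named were the 2 highest members of each library, those at the limits and with consecutive numbers or a call, and the remaining members for completeness. Counting intervals are exact 95% binomial intervals. Large and small were compared over the whole table with edgeR 4.0.16 in R 4.3.3 (quasi-likelihood F test, robust, TMM, filterByExpr, Benjamini-Hochberg) and DESeq2 1.42.0. The SE given for edgeR was derived from its test, as the absolute log2 fold change divided by the square root of F. The tests were tried on simulated data. The check that had to pass used a dispersion (spread between libraries beyond counting error) below that of these data. The median dispersion was 0.267 over the coding sequences tested in edgeR and 1.38 for the 3 members tested there. That check therefore does not show what the fit could find here. Deviations of log2 CPM from group means correlated at 0.72, 0.19 and 0.59 between large and small libraries of the same number 1, 2 and 3. These were above the limit of 0.1, so fits with the number as a replicate block were run beside the main fit, which had no block. Across the numbers 2 and 3 the correlations were also above the limit (0.20 for large library 3 with small library 2, and 0.11 for the reverse). Number 2 thus did not stand out as a pair.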

Additional observations from a re-analysis of the deposited data

How the results depend on the processing

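The number of coding sequences abundant in 1 pool only depends on the limits. It was 16 as described, 104 at a ratio of 4, 8 at a ratio of 16, 45 at 5 CPM, 12 at 20 CPM, 16 with no row left out for its mean or with no cap, 17 with TMM scaling (14 of the 16 members among them), 15 with DESeq2 size factors (14) and 22 after thinning all libraries to 2434421 counts (13). With 5 libraries compared in place of 6 it was 82, 22 and 95 without large library 1, 2 or 3, and 54, 30 and 98 without small library 1, 2 or 3. With TMM scaling the split was 8 large to 9 small, against 9 to 7, and after thinning 14 to 8, so neither growth group led throughout. Of 31 member ratios under TMM scaling or thinning, 29 stayed within their counting interval. The TMM scaling factors of the libraries differ too little to move any member ratio out of its interval. The TMM ratios among the 31 therefore had to stay inside and say nothing of stability, and only thinned ratios could fall outside. Thinning was 1 random draw of counts per library, so thinned ratios also carry the error of that draw, and it was not repeated. The 2 outside their interval came from thinning, HSB_liver_CDS_22859 going from 18.0 to 8.38 and HSB_liver_CDS_9843 from 21.8 to 12.6. Thinning also moved HSB_liver_CDS_33791 to 9.17, HSB_liver_CDS_16609 to 9.67 and HSB_liver_CDS_2881 to 25.0, and left HSB_liver_CDS_9739 with no second count. Below the limit of 8 after thinning were HSB_liver_CDS_9573 at 7.5, HSB_liver_CDS_20519 at 6.6 and HSB_liver_CDS_16608 at 7.91. HSB_liver_CDS_9573 and HSB_liver_CDS_20519 fell to ratios of 6.77 and 7.14 with TMM scaling. Between large and small fish, edgeR called 0 coding sequences with the replicate block, with DESeq2 size factors, without the filter (37503 tested, all 16 members with an adjusted p of 1.0) and without each library in turn. DESeq2 called 1, and 51 with the replicate block; the cause was not tested. Of the 16 members, 9 had no count in small library 2, the shallowest, 5 in small library 3, 3 in small library 1 and 2 in each large library. A member has counts by choice in the library where it is highest. The number of members that could be at 0 therefore differs between libraries. The part of depth in these counts was not tested.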
